A study of Mus musculus with 57 samples.

Results

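The 10 genes examined here are products of liver sinusoidal endothelial cells: the scavenger and uptake receptors Stab1, Stab2, Lyve1, Clec4g and Fcgr2b, the cell-identity genes Oit3, Kdr and Gpr182, and the Wnt pathway signals Wnt2 and Rspo3. They were picked by gene symbol, and all 10 were found among the 54307 genes of the deposited table. The study sequenced bulk RNA from 57 livers of male wild-type C57BL/6JJcl mice, in order to test methods that estimate cell composition from bulk tissue. Mice 6 weeks old had 1 week of acclimatisation and a 12 h fast, received a single toxicant or a vehicle, and were killed 24 h later. By gavage, alpha-naphthyl isothiocyanate (ANIT, a bile duct toxicant, 4 mice), acetaminophen (APAP, 6 mice), 4,4'-methylene dianiline (MDA, 7 mice) and thioacetamide (TAA, 5 mice) were set against 13 mice given 0.5% methylcellulose (Ctrl). By intraperitoneal injection, carbon tetrachloride (CCl4, 7 mice) and galactosamine (GAL, 4 mice) were set against 2 mice given saline (CIP). The plant lectin concanavalin A (ConA, 7 mice), given into the tail vein, was set against 2 mice given saline by that route (CIV). All 17 vehicle mice together served as a second control for the injected compounds. The labels give a volume of 10 µL/kg for every group but no dose by weight, and name corn oil as a vehicle without saying for which compound; a corn oil control was not analysed here. Livers were perfused before the left lateral lobe was sampled. Replicate numbers were read as separate mice, which the labels do not state outright; otherwise the p-values measure the spread between samples alone.

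Sinusoidal endothelial cells line the capillaries of the liver. Unlike other endothelium they are fenestrated and lack a continuous basement membrane, and they clear waste molecules such as hyaluronan, modified proteins and immune complexes from blood through a set of scavenger receptors. Endothelial cells near the central vein also release Wnt ligands and R-spondins. These act on frizzled, LRP and LGR receptors of nearby hepatocytes and maintain the pericentral gene programme, to which glutamine synthetase (Glul) and the cytochrome Cyp2e1 belong.

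Estimated counts per sample summed to between 13826343 and 35075809, with a median of 21532116. Levels below are in CPM, the estimated counts relative to the total of each library as scaled by TMM, a factor that offsets differences in RNA makeup. A gene is called changed at an adjusted p under 0.05 in edgeR's quasi-likelihood test, and every log2 fold change is given with its standard error (SE). In whole tissue, fewer cells of a type and less RNA per cell cannot be told apart. Albumin (Alb), the main secretory protein of hepatocytes, lay at a median of 44947 CPM in the gavage controls. The gavage mice numbered 1 to 4 differed from those numbered above 4 in 321 genes, or 2.33% of those tested, although the labels name no batch. Of the 10 genes 0 were called between those ranges in edgeR, but 4 of 7 Kupffer cell markers were lower in the mice numbered 1 to 4. Numbers 1 to 4 were held by 4 of 13 gavage controls and all 4 ANIT mice. They were held by 3 of 6 APAP, 4 of 7 MDA and 2 of 5 TAA mice. For CCl4, GAL and ConA they were held by 1 of 7, 2 of 4 and 3 of 7 mice, and by no saline mouse.

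No difference in the 10 genes was detected between vehicle groups. Of the 10 genes, 0 were called between intraperitoneal saline and gavage vehicle, where 0.0131% of all genes were called, and 0 between intravenous saline and gavage vehicle, where 0.0263% were. At an unadjusted p under 0.05 in edgeR the count was also 0 in both, beside 3.75% and 3.82% of all genes, and DESeq2 called 0 of the 10 in either. With 2 mice per saline group these comparisons could show large differences alone. The pair of intravenous saline mice held 0.535 and 1.94 CPM of Rspo3 and 2.78 and 9.41 CPM of Lyve1.

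Of the 10 genes, 6 had an entry in the RefSeq promoter table (GRCm38.p6), which gave the 250 bases before the gene start: Stab1, Stab2, Clec4g, Fcgr2b, Kdr and Wnt2. They were matched by symbol, since the deposited counts rest on another build, GRCm39. The sequences below are those of Kdr, Wnt2 and Clec4g, which kept the least of their saline level after ConA among these 6, and of Stab2, which moved less in the same livers. Capitals mark AGGAAG, one longer form of the GGAA core of ETS factor sites, or its reverse complement CTTCCT; other matches to GGAA are not marked. All lie on the minus strand and read 5′ to 3′ towards the gene, at chr5:75978456-75978705 (Kdr), chr6:18030446-18030695 (Wnt2), chr8:3720652-3720901 (Clec4g) and chr10:87007943-87008192 (Stab2).
Kdr: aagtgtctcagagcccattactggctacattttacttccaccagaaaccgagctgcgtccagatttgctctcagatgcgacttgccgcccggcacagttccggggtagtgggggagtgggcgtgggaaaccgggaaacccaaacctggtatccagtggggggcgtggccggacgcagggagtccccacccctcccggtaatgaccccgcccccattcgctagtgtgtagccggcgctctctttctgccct
Wnt2: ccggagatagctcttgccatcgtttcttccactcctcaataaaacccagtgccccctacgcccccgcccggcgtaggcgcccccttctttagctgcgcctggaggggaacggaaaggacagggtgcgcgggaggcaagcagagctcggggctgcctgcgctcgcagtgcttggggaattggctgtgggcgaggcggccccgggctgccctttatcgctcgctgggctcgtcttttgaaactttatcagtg
Clec4g: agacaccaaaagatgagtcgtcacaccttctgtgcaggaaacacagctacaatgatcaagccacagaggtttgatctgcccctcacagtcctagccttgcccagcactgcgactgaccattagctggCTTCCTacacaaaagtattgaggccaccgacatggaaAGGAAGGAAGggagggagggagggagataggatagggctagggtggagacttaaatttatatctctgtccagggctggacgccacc
Stab2: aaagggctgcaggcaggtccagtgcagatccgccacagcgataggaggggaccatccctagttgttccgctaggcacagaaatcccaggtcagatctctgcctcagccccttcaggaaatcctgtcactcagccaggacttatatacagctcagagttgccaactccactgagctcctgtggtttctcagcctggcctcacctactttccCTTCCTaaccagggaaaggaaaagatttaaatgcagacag
On either strand, AGGAAG was in 3 of the 6 promoters, with 3 copies in Clec4g, of which some overlap each other, and 1 each in Stab1 and Stab2. It was in 29.5% of all 32851 promoters of that length. AGATAA, 1 form of GATA factor sites, or its reverse complement TTATCT, was in 0 of the 6 and in 10.0% of all promoters. Other forms, such as the AGATAG in the printed Wnt2 and Clec4g sequences, were not searched. These are letter matches within a short window.

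The compounds differed in how many of the 10 genes changed. After TAA 10 of 10 were called, 3 higher and 7 lower, where 50.5% of all genes were called (24% lower). The median log2 fold change of the 10 was -0.89, beside 0.03 over all genes. After ConA 7 of 10 were called against intravenous saline, 1 higher and 6 lower, where 34.2% of all genes were called (17.3% lower). Against all vehicle mice, 10 of 10 were called after ConA, 2 higher and 8 lower, beside 68% of all genes (33.7% lower). The medians of the 10 were -2.37 and -2.42, beside 0.03 and 0.01 over all genes. Mitochondrial transcripts held 14.6 to 39.3% of the counts after ConA, against 7.48 to 21.8% in gavage controls and 6.80 to 25.4% in the intravenous saline pair, with overlapping ranges. ConA mouse 2 had the highest share of all 57 mice, and without it 7 of the 10 were called against intravenous saline and 10 against all vehicle mice. The part of this share in the ConA results was not tested otherwise.

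MDA changed 7 of 10 genes, 2 higher and 5 lower, beside 33.8% of all genes (16.4% lower). ANIT changed 4 of 10, 1 higher and 3 lower, beside 28.2% (14.2% lower), and APAP changed 4 of 10, 2 higher and 2 lower, beside 31.8% (14.6% lower). The shares for ANIT and APAP are near those of all genes. After CCl4, 4 of 10 fell and 0 rose against intraperitoneal saline, beside 33.5% called and 15.6% lower. Against all vehicle mice 8 of 10 fell and 0 rose after CCl4, beside 53.4% called and 27.2% lower. With libraries scaled by their totals alone, 0 fell in the former and 2 fell and 1 rose in the latter. Under that scaling 80.6% and 80.5% of all called genes were higher in these comparisons.

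GAL changed 0 of the 10 genes against intraperitoneal saline in edgeR, beside 28.5% of all genes. DESeq2, however, called 1 of the 10 there (Oit3). With libraries scaled by their totals 4 rose there, Stab1 (1.07), Lyve1 (2.13), Clec4g (0.87) and Rspo3 (2.06). Under that scaling 6359 of 15509 genes were called, 86.7% of them higher. At an unadjusted p under 0.05 in the TMM-scaled edgeR fit, 2 of the 10 passed, Oit3 and Rspo3, beside 42.8% of all genes. Against all vehicle mice GAL changed 4 of the 10, 2 higher and 2 lower, beside 52.5% (27.5% lower). With libraries scaled by their totals 8 rose and 0 fell in that comparison, where 10103 of 15255 genes were called, 82.6% of them higher. Genes were also counted whose values in all treated mice lay wholly below or wholly above those of their route's vehicle mice. After ANIT 0 of the 10 lay below and 1 above, beside 5% and 3.99% of all genes. After APAP 0 of the 10 lay below and 2 above, beside 4.59% and 2.09% of all genes. After MDA 1 of the 10 lay below and 1 above, beside 3.07% and 1.75% of all genes. After TAA 5 of the 10 lay below and 1 above, beside 10.2% and 10% of all genes. After CCl4 6 of the 10 lay below and 0 above, beside 19.9% and 21.1% of all genes. After GAL 1 of the 10 lay below and 2 above, beside 25.6% and 26.7% of all genes. After ConA 7 of the 10 lay below and 1 above, beside 21.4% and 18.5% of all genes. The gavage compounds share 1 set of controls, CCl4 and GAL share another, and the comparisons with all vehicle mice share both, so these counts are not independent.

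**Figure D1:**
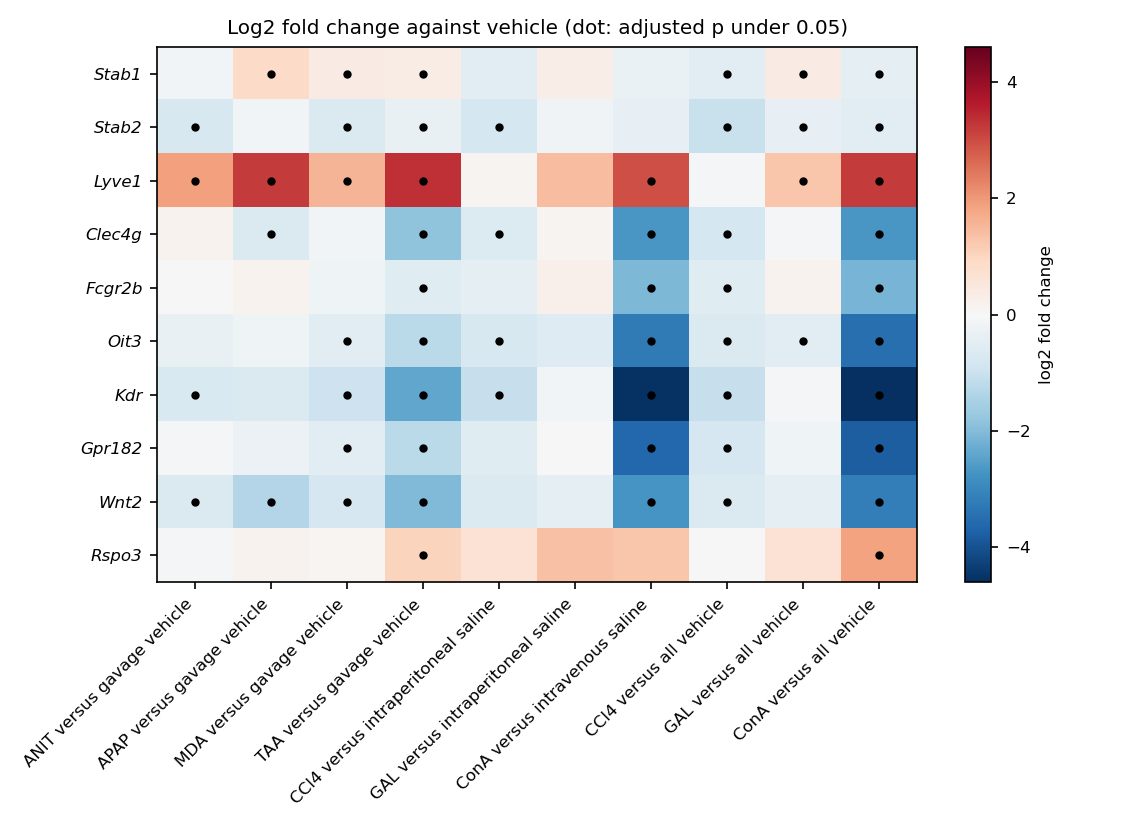
Log2 fold changes of the 10 genes (rows) in 10 comparisons of a toxicant with vehicle (columns), red for higher and blue for lower, with a dot where the adjusted p is under 0.05. The Lyve1 row is red in the columns of ANIT, APAP, MDA, TAA, GAL and ConA, with no dot for GAL against saline, and the Kdr row is blue and reaches -4.60 for ConA against all vehicle mice.

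Lyve1, a hyaluronan receptor that also marks lymphatic endothelium and some macrophages, rose in 5 of the 7 comparisons with the vehicle of the same route and fell in 0. In the 13 gavage controls its lowest, median and highest levels were 3.11, 5.48 and 7.99 CPM. After TAA the 5 mice held 32.1, 41.6, 58.3, 63.5 and 65.8 CPM. All 5 stood far above every control, with a log2 fold change of 3.37 (SE 0.20, adjusted p = 9.63e-11). After ConA the lowest, median and highest of 7 mice were 34.0, 41.2 and 68.4 CPM, and none came near the 2.78 and 9.41 CPM of the intravenous saline mice. This was a log2 fold change of 2.97 (SE 0.49, adjusted p = 0.00136), which was 2.36 without saline mouse 7 and 4.05 without saline mouse 8.

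APAP split its mice on Lyve1. Mice 2, 6 and 4 had 9.83, 11.2 and 11.5 CPM, whereas mice 11, 8 and 1 had 58.1, 75.1 and 118 CPM. Even the lower set exceeded the highest gavage control, and the log2 fold change was 3.22 (SE 0.41, adjusted p = 9.12e-06). Among mice numbered 1 to 4 it was 3.39, where it missed the threshold (adjusted p = 0.0612). Mouse 1 also had the lowest APAP levels of Clec4g (17.5 CPM), Fcgr2b (22.3), Oit3 (6.55), Kdr (1.22) and Gpr182 (3.02).

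Smaller Lyve1 rises followed ANIT and MDA. ANIT mice had 16.3, 17.6, 21.7 and 21.8 CPM, a log2 fold change of 1.89 (SE 0.20, adjusted p = 4.61e-06). MDA mice had 10.6, 13.9 and 22.6 CPM (lowest, median, highest), a log2 fold change of 1.55 (SE 0.19, adjusted p = 3.82e-06). Neither group overlapped the controls. GAL mice had 5.08, 8.98, 13.9 and 23.6 CPM of Lyve1. It was higher than in all vehicle mice, with a log2 fold change of 1.27 (SE 0.30, adjusted p = 0.00108). Against the 2 intraperitoneal saline mice, at 2.83 and 6.58 CPM, it was not called, at 1.44 (SE 0.70, adjusted p = 0.166). Scaling by library totals gave a call there, at 2.13 (adjusted p = 0.0477), and without single mice the value ranged from 0.92 to 2.28, with no call. After CCl4 it lay at 2.04 to 7.51 CPM, overlapping the vehicle mice.

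Of the fixed lymphatic endothelial markers, Ccl21a was at most 5.04 CPM, Mmrn1 at most 0.176 and Pdpn at most 2.00 CPM in any mouse, and Ccl21a was listed at 0 in every ANIT and MDA mouse. Their summed level was mostly Prox1, which hepatocytes also express, and Flt4, which is also on the list of other sinusoidal endothelial genes. Pdpn, Prox1, Ccl21a, Flt4 and Mmrn1 together held 21.0 to 39.8 CPM in gavage controls, 12.2 to 18.7 after TAA, 19.6 to 30.9 after APAP, 22.6 to 44.9 after MDA and 28.1 to 42.2 after ANIT. The ANIT median of 35.7 CPM was above the control median of 28.3, with overlapping ranges, and all TAA mice were below the controls. After ConA the sum was 15.1 to 25.7 CPM beside 18.3 to 25.7 in the intravenous saline pair. Of the 3 tested after TAA, 2 fell (Flt4 by 0.67 and Prox1 by 0.85 on the log2 scale) and 0 rose, beside 24% of all genes lower and 26.4% higher. Of the 4 tested after ConA against all vehicle mice, Pdpn rose by 2.53 and Flt4 fell by 1.48, beside 34.3% of all genes higher and 33.7% lower. The part of these markers in the Lyve1 level was not tested.

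Stab1 and Stab2, the stabilins, which are scavenger receptors, moved less. Stab1 after APAP was 25.5, 25.7, 26.4 and 27.0 CPM in mice 2, 6, 1 and 4 and 49.3 and 51.1 CPM in mice 11 and 8, against 13.1 to 23.3 CPM in gavage controls. All 6 APAP mice lay above all controls, and the log2 fold change was 0.88 (SE 0.16, adjusted p = 0.000401). The groups overlapped after MDA (log2 fold change 0.37, SE 0.13, adjusted p = 0.0305) and TAA (0.34, SE 0.13, adjusted p = 0.0315). The MDA call was lost without MDA mouse 4, 7, 8 or 12 (adjusted p 0.0527 to 0.092), and the TAA call without TAA mouse 6, 7 or 8 (adjusted p 0.0634 to 0.0987). Stab1 is also expressed by macrophages. The summed Kupffer cell markers after APAP, 271 to 494 CPM, lay within the 185 to 502 CPM of the gavage controls, whereas the summed monocyte and neutrophil markers reached 213 CPM against at most 59.9 CPM. Their part in the Stab1 level was not tested.

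Stab2 fell in 4 of the 7 route comparisons and rose in 0. Gavage controls held 14.5, 22.1 and 29.6 CPM (lowest, median, highest). ANIT mice held 12.4, 12.6, 13.5 and 15.6 CPM, and MDA mice 12.2, 15.2 and 16.0 CPM. Both sets sat at the bottom of the control range, where only control mouse 17 overlapped them. The log2 fold changes were -0.73 (SE 0.15, adjusted p = 0.0014) and -0.66 (SE 0.12, adjusted p = 0.000193). After TAA the fall was smaller, at -0.36 (SE 0.13, adjusted p = 0.0325), and was lost without TAA mouse 6, 7 or 8 (adjusted p 0.0542 to 0.113).

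CCl4 had the lowest Stab2 median of any group, at 11.2 CPM with a range of 8.59 to 13.4, below both intraperitoneal saline mice at 16.9 and 21.5 CPM. The log2 fold change was -0.79 (SE 0.18, adjusted p = 0.0087), and without saline mouse 7 it was -0.58 (adjusted p = 0.117). Against all vehicle mice it was -1.02 (SE 0.12, adjusted p = 7.5e-08), without overlap. After ConA, Stab2 was 8.16, 15.0 and 18.2 CPM (lowest, median, highest). It was not called against intravenous saline (-0.37, SE 0.30, adjusted p = 0.373), except with libraries scaled by their totals (-0.98, adjusted p = 0.0459), and was called against all vehicle mice (-0.54, SE 0.14, adjusted p = 0.00138). In the livers where Kdr kept 4.12% of its vehicle level, Stab2 kept 69.0% and Stab1 73.3% (Stab1 log2 fold change -0.45, SE 0.12, adjusted p = 0.00217). Scaled by library totals, which moved the median of all genes to -0.61, the log2 fold changes were -5.23 for Kdr, -1.17 for Stab2 and -1.07 for Stab1.

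**Figure D2:**
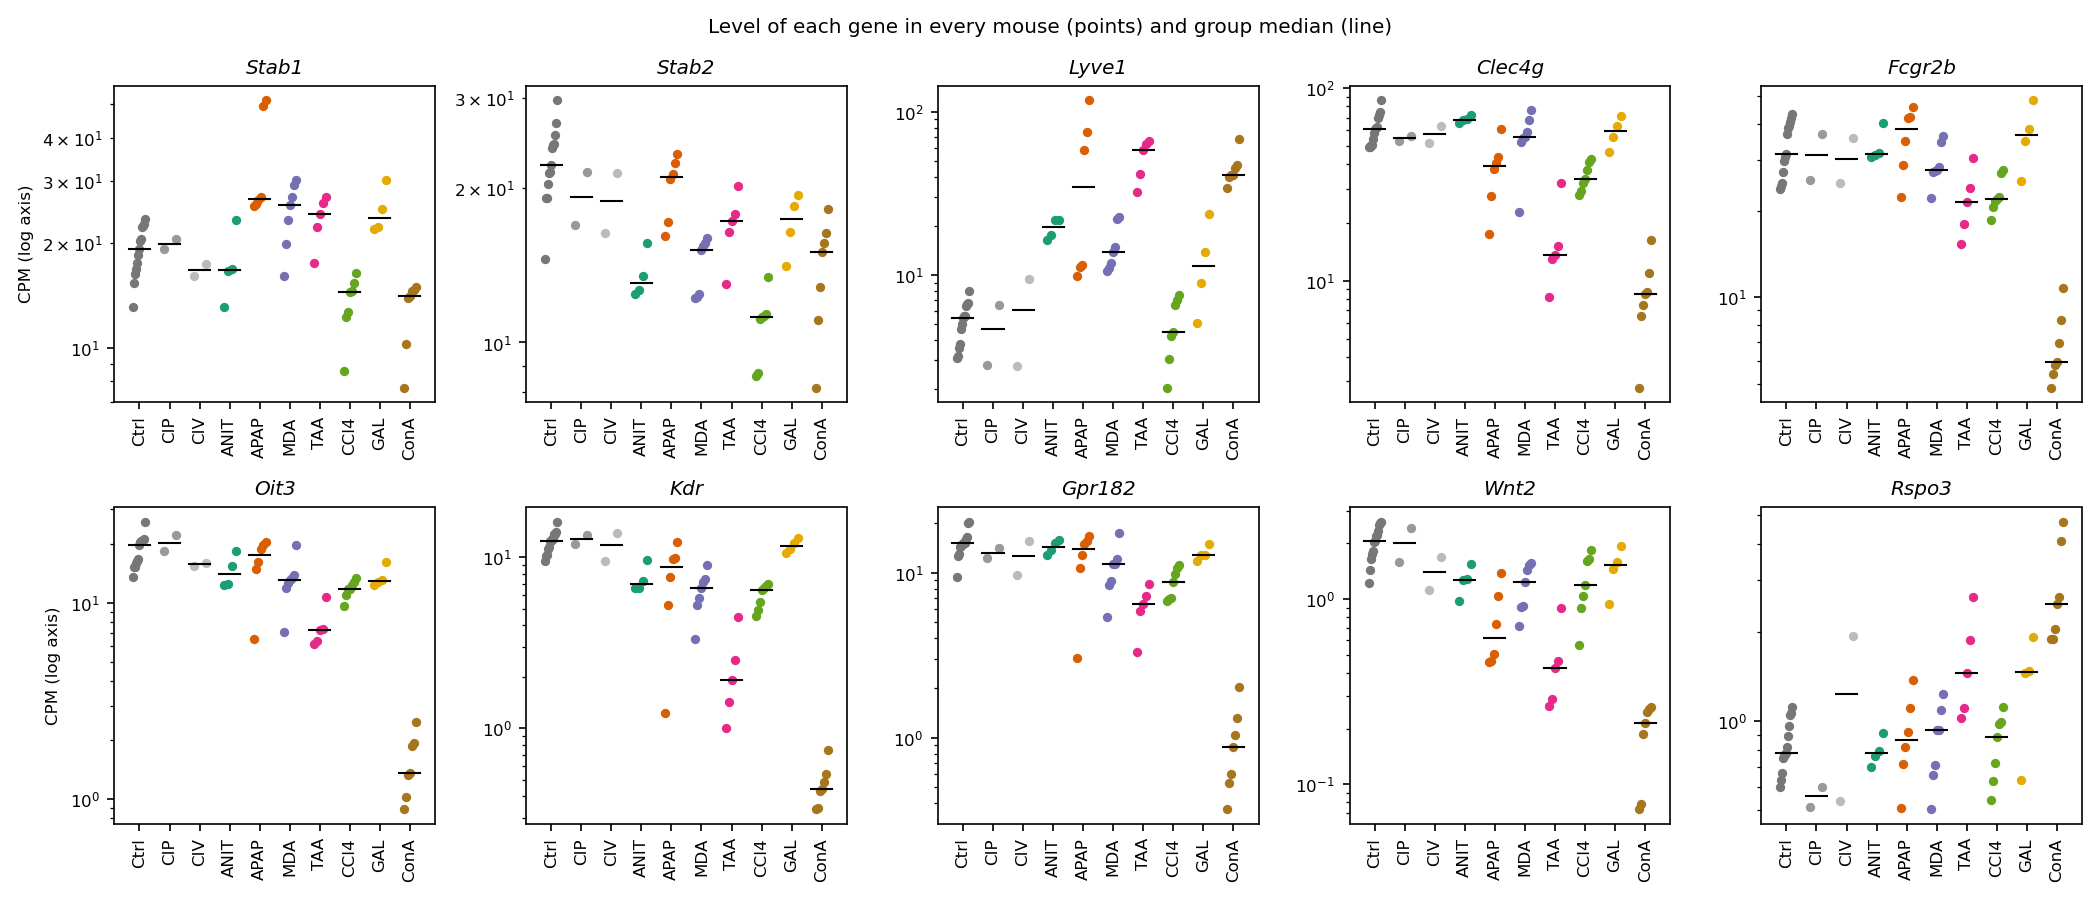
Level in CPM of each of the 10 genes (panels, log axes) in every mouse (points), by group, with the group median as a line. Kdr, Oit3, Gpr182, Fcgr2b and Wnt2 lie below every mouse of all other groups in the ConA column, while Lyve1 is high there and in the TAA and APAP columns, where the APAP mice form a lower and an upper set.

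Clec4g, the lectin LSECtin of the sinusoidal endothelium, fell in 4 of the 7 route comparisons. Gavage controls had 49.1, 61.3 and 86.0 CPM (lowest, median, highest). After TAA the mice had 8.20, 12.9, 13.6, 15.0 and 32.0 CPM, all below every control. The log2 fold change was -1.85 (SE 0.25, adjusted p = 4.13e-06), and among mice numbered 1 to 4 it was -1.21 (adjusted p = 0.0565). After ConA, levels of 2.79, 8.57 and 16.3 CPM (lowest, median, highest) compared with 51.9 and 63.0 CPM after intravenous saline. The log2 fold change was -2.66 (SE 0.42, adjusted p = 0.0011), so that 15.8% of the saline level was left.

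Clec4g after APAP spread over 17.5 to 60.9 CPM, with 5 of 6 mice under the lowest control (log2 fold change -0.66, SE 0.19, adjusted p = 0.0121). That call was lost with libraries scaled by their totals (-0.45, adjusted p = 0.194), among mice numbered 1 to 4 (adjusted p = 0.235) and among those numbered above 4 (adjusted p = 0.103). After CCl4 it was 27.7 to 42.5 CPM, under the 52.8 and 56.4 CPM of intraperitoneal saline. The log2 fold change was -0.62 (SE 0.17, adjusted p = 0.0181), and the call was lost without saline mouse 7 (log2 fold change -0.55) or saline mouse 8 (-0.68). ANIT mice, at 65.7 to 72.5 CPM, lay inside the control range.

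Fcgr2b is the inhibitory IgG receptor through which these cells take up immune complexes, and B cells and macrophages also carry it. Gavage controls had 23.7, 31.4 and 43.3 CPM (lowest, median, highest), and ConA mice 4.84, 5.94 and 10.8 CPM. No ConA mouse came near a vehicle mouse, and the intravenous saline pair had 25.0 and 35.7 CPM. That gave a log2 fold change of -2.08 (SE 0.29, adjusted p = 0.000596). After TAA the 5 mice had 15.3, 18.0, 21.4, 24.1 and 30.6 CPM, overlapping the controls (log2 fold change -0.55, SE 0.18, adjusted p = 0.014), and the call was lost without TAA mouse 6 (adjusted p = 0.0572).

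Kdr, the main endothelial receptor for VEGF, fell in 5 of the 7 route comparisons and had the deepest fall of the 10 genes. Its lowest, median and highest levels were 9.54, 12.4 and 16.1 CPM in gavage controls. ConA mice had 0.336, 0.438 and 0.747 CPM, beside 9.50 and 13.9 CPM in the intravenous saline pair. Every ConA liver was more than 10-fold under either saline mouse. Kdr had a log2 fold change of -4.56 (SE 0.30, adjusted p = 1.61e-05), and -4.60 (SE 0.16, adjusted p = 4.54e-18) against all vehicle mice.

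TAA mice held 1.00, 1.43, 1.92, 2.49 and 4.47 CPM of Kdr, with no overlap with controls (log2 fold change -2.40, SE 0.26, adjusted p = 3.83e-07). MDA mice held 3.31, 6.63 and 9.00 CPM (lowest, median, highest), also below every control (-0.95, SE 0.15, adjusted p = 6.23e-05). ANIT mice held 6.56, 6.59, 7.28 and 9.56 CPM, of which the highest just overlapped the controls (-0.71, SE 0.14, adjusted p = 0.00135). MDA and ANIT mice overlapped each other. CCl4 mice held 4.50 to 6.97 CPM against 12.0 and 13.4 CPM after intraperitoneal saline, a log2 fold change of -1.06 (SE 0.18, adjusted p = 0.00169).

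APAP left Kdr just short of the threshold. Its mice held 1.22, 5.25, 7.66, 9.80, 9.82 and 12.3 CPM, a log2 fold change of -0.66 (SE 0.27, adjusted p = 0.0696). The value passed without mouse 1 (-0.44, adjusted p = 0.0408), without mouse 4 (-0.84, adjusted p = 0.0293) and in DESeq2 (adjusted p = 0.0315). The 3 APAP mice with the highest Lyve1 had the 3 lowest Kdr levels. GAL left Kdr at 10.5 to 12.9 CPM, overlapping the vehicle mice.

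**Figure D3:**
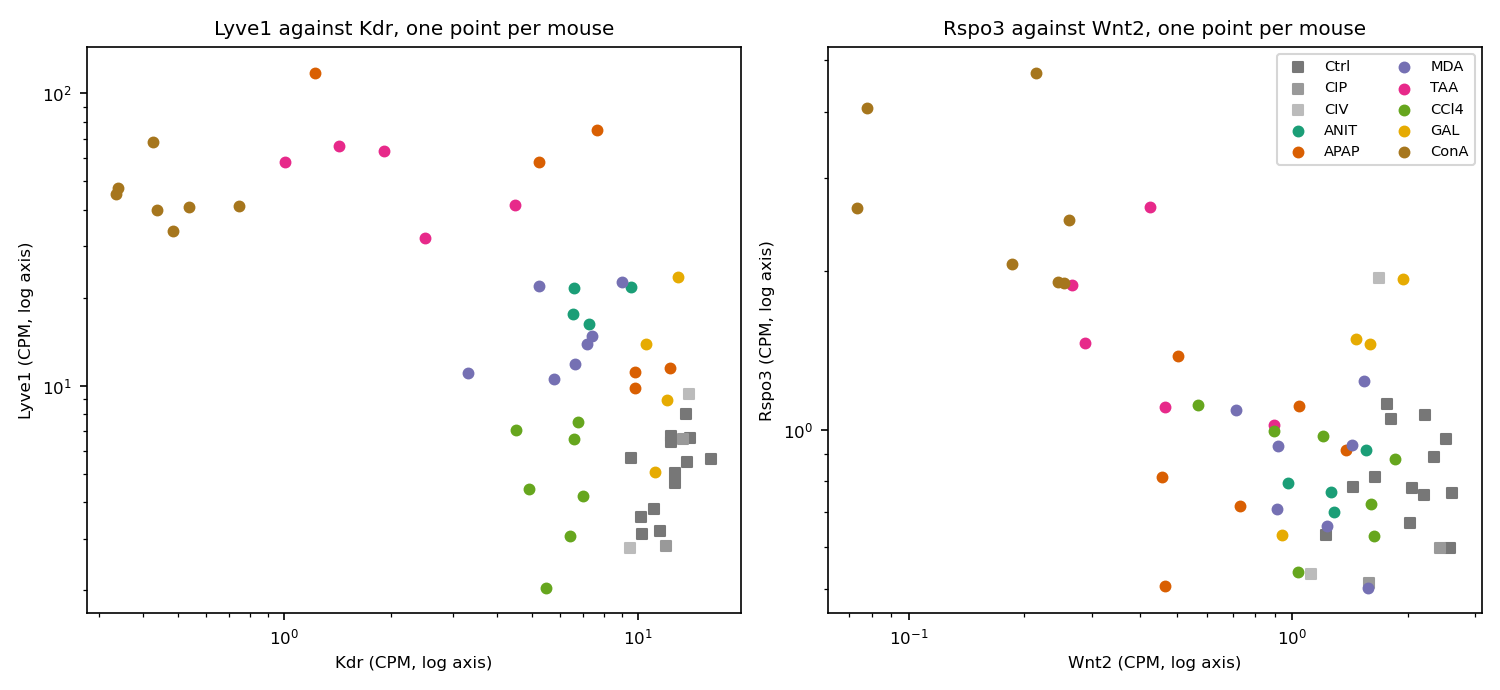
Lyve1 against Kdr (left) and Rspo3 against Wnt2 (right), in CPM on log axes, 1 point per mouse, squares for vehicle groups and circles for toxicants. APAP mouse 1 has 118 CPM of Lyve1 and 1.22 CPM of Kdr, ConA and TAA mice combine high Lyve1 with low Kdr, and CCl4 mice have lower Kdr without higher Lyve1.

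Oit3, a zona pellucida domain protein made in liver, and Gpr182, an atypical chemokine receptor, also fell after ConA and TAA. Gavage controls had 13.5, 19.6 and 25.8 CPM of Oit3 (lowest, median, highest), and ConA mice 0.891, 1.36 and 2.48 CPM. The intravenous saline pair had 15.3 and 16.0 CPM, and the log2 fold change was -3.26 (SE 0.34, adjusted p = 0.000125). TAA mice had 6.14, 6.40, 7.23, 7.33 and 10.7 CPM, all under the lowest control (-1.24, SE 0.16, adjusted p = 3.44e-06). The falls after MDA and CCl4 were smaller. After MDA 5 of 7 mice were under every control (-0.51, SE 0.16, adjusted p = 0.015), a call lost among mice numbered 1 to 4 (-0.35, adjusted p = 0.31). After CCl4 Oit3 lay at 9.61 to 13.4 CPM beside 18.3 and 22.2 CPM in the intraperitoneal saline pair (-0.75, SE 0.15, adjusted p = 0.0039), and the call was lost without saline mouse 7 (adjusted p = 0.0606).

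GAL mice had 12.4, 12.7, 13.0 and 16.2 CPM of Oit3, all under both intraperitoneal saline mice, but the difference was not called (log2 fold change -0.58, SE 0.21, adjusted p = 0.0848). In that comparison 25.6% of all genes were lower without overlap. Against all vehicle mice Oit3 fell by 0.47 on the log2 scale (SE 0.14, adjusted p = 0.00823), a call lost without GAL mouse 4 or 8 (adjusted p 0.0669 and 0.0774), and with libraries scaled by their totals the sign turned (0.36).

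Gpr182 had 9.40, 15.1 and 20.4 CPM (lowest, median, highest) in gavage controls and 0.368, 0.876 and 2.03 CPM after ConA. The intravenous saline pair had 9.66 and 15.6 CPM, so the groups stood far apart (log2 fold change -3.61, SE 0.51, adjusted p = 0.000572). After TAA the mice had 3.29, 5.89, 6.45, 7.20 and 8.54 CPM, below all controls (-1.22, SE 0.18, adjusted p = 1.86e-05). MDA mice spread over 5.41 to 17.4 CPM (-0.51, SE 0.18, adjusted p = 0.0308), and that call was lost without MDA mouse 3, 8 or 12 (adjusted p 0.0638 to 0.0692). After CCl4 all 7 mice, at 6.76 to 11.1 CPM, were under the 12.4 and 14.1 CPM of the saline pair, but the value was not called (-0.56, SE 0.22, adjusted p = 0.0741). In that comparison 19.9% of all genes were lower without overlap.

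Wnt2, a ligand that sinusoidal and central vein endothelium supplies to hepatocytes, fell in 5 of the 7 route comparisons and rose in 0. Levels were low, at 1.23, 2.05 and 2.61 CPM (lowest, median, highest) in gavage controls. TAA mice had 0.267, 0.288, 0.425, 0.465 and 0.898 CPM, without overlap (log2 fold change -2.04, SE 0.28, adjusted p = 5.87e-06). ConA mice had 0.0735, 0.215 and 0.262 CPM against 1.12 and 1.69 CPM after intravenous saline (-2.73, SE 0.52, adjusted p = 0.00299). The lowest value over the 10 genes and all mice was 0.670 estimated counts, so single values this low are coarse.

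After APAP, Wnt2 was 0.458 to 1.38 CPM, with 5 of 6 mice under the lowest control (log2 fold change -1.34, SE 0.26, adjusted p = 0.000516). Mice 8 and 11 were the highest, and among mice numbered above 4 the value was -0.90 and not called (adjusted p = 0.0674). Wnt2 fell by 0.78 after MDA on the log2 scale (SE 0.19, adjusted p = 0.00316) and by 0.67 after ANIT (SE 0.21, adjusted p = 0.0267), with overlapping groups in both. The ANIT call was lost without ANIT mouse 1, 3 or 4 (adjusted p 0.0606 to 0.0881). CCl4 mice had 0.566 to 1.85 CPM, called against all vehicle mice (-0.66, SE 0.20, adjusted p = 0.00818). Against the 2 intraperitoneal saline mice the value was of the same size and not called (-0.66, SE 0.40, adjusted p = 0.24). The call was lost with libraries scaled by their totals (-0.12, adjusted p = 0.613) and among mice numbered above 4 (adjusted p = 0.0604).

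Rspo3 is the R-spondin that strengthens Wnt signalling by keeping frizzled receptors on the cell surface. It was called higher after TAA and, against all vehicle mice, after ConA. These groups had the lowest Wnt2 medians, but after APAP, the next lowest, Rspo3 was not called. Gavage controls had 0.598, 0.782 and 1.12 CPM (lowest, median, highest). TAA mice had 1.02, 1.11, 1.46, 1.88 and 2.64 CPM, with 3 of 5 above every control (log2 fold change 1.02, SE 0.22, adjusted p = 0.000617). Among mice numbered 1 to 4 it was 0.46 (adjusted p = 0.514). ConA mice had 1.90, 2.50 and 4.74 CPM (lowest, median, highest), with 5 of 7 above every vehicle mouse. Against all vehicle mice Rspo3 rose by 1.84 (SE 0.23, adjusted p = 1.07e-07). Against intravenous saline the value was 1.27 (SE 0.58, adjusted p = 0.114), without saline mouse 7 it was 0.64 (adjusted p = 0.468), and without saline mouse 8, which held 1.94 CPM, it was 2.45 (adjusted p = 0.0378).

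GAL mice had 0.635, 1.46, 1.48 and 1.93 CPM of Rspo3, all above the intraperitoneal saline pair at 0.514 and 0.599 CPM, though the difference was not called (log2 fold change 1.34, SE 0.55, adjusted p = 0.115). Without GAL mouse 2 it was 1.57 (adjusted p = 0.0202), and 26.7% of all genes were higher without overlap there. Median Rspo3 levels were 0.779 CPM after ANIT, 0.867 after APAP, 0.932 after MDA and 0.883 after CCl4.

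Some calls of the 10 genes against vehicle kept their direction but missed the threshold under other settings. Among mice numbered 1 to 4 alone they were Lyve1 and Clec4g after APAP, Stab1, Oit3, Gpr182 and Wnt2 after MDA, Stab1, Stab2, Clec4g, Fcgr2b, Gpr182 and Rspo3 after TAA, Stab1, Stab2, Lyve1 and Oit3 after GAL against all vehicle mice, Stab1 and Stab2 after ConA against all vehicle mice (adjusted p 0.0518 to 0.603). Among mice numbered above 4 alone they were Clec4g and Wnt2 after APAP, Wnt2 after CCl4 against all vehicle mice, Stab2 and Oit3 after GAL against all vehicle mice (adjusted p 0.0604 to 0.338). With libraries scaled by their totals they were Clec4g after APAP, Stab1 after MDA, Stab1 and Stab2 after TAA, Stab2, Clec4g, Oit3 and Kdr after CCl4 against saline, Clec4g, Oit3, Gpr182 and Wnt2 after CCl4 against all vehicle mice (adjusted p 0.0608 to 0.613). In a single fit over all samples they were Kdr and Wnt2 after ANIT, Stab1 and Gpr182 after MDA, Stab1 after TAA, Clec4g after CCl4 against saline, Oit3 after GAL against all vehicle mice (adjusted p 0.061 to 0.2). Without a filter on low counts they were Wnt2 after ANIT, Stab1 after TAA, Stab2 after GAL against all vehicle mice (adjusted p 0.0542 to 0.0666). With a mean of at least 5 CPM required they were Stab2 and Oit3 after GAL against all vehicle mice (adjusted p 0.195 to 0.467). Stab2 after TAA was lost when all vehicle mice replaced the gavage controls (adjusted p = 0.0624). After GAL against all vehicle mice the Stab1 call was lost without GAL mouse 7 (adjusted p = 0.0764) and the Stab2 call without GAL mouse 2, 4, 7 or 8 (adjusted p 0.0561 to 0.27).

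Other values passed the threshold under another setting only. With libraries scaled by their totals these were Oit3 after ANIT, Fcgr2b and Rspo3 after GAL against all vehicle mice, Stab2 after ConA against saline, Stab1, Lyve1, Clec4g and Rspo3 after GAL against saline (adjusted p 3.97e-05 to 0.0477). In DESeq2 they were Kdr after APAP, Stab1, Fcgr2b and Gpr182 after CCl4 against saline, Rspo3 after GAL against all vehicle mice, Oit3 after GAL against saline (adjusted p 0.0315 to 0.0497). In a single fit over all samples they were Kdr after APAP, Rspo3 after GAL against all vehicle mice, Rspo3 after ConA against saline, Rspo3 after GAL against saline (adjusted p 0.0168 to 0.025). With a mean of at least 5 CPM required they were Stab1 and Gpr182 after CCl4 against saline, Fcgr2b after GAL against all vehicle mice (adjusted p 0.0372 to 0.0481). Kdr after APAP also passed in limma, among mice numbered above 4 and against all vehicle mice, and Rspo3 after GAL against all vehicle mice with the number range as a covariate. Leaving out 1 mouse gave calls for Kdr after APAP (without APAP mouse 1 or 4), for Stab1 (without CCl4 mouse 8 or 11) and Gpr182 (without CCl4 mouse 11) after CCl4 against saline, for Rspo3 after GAL against saline and against all vehicle mice (without GAL mouse 2), and for Rspo3 after ConA against saline (without saline mouse 8).

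Setting compounds against each other by route gave 3 direct tests, with p-values adjusted over all genes in each. CCl4 lay below GAL in 7 of the 10 genes and above it in 0, beside 42.5% of all genes called and 20.3% lower. Stab1 was 8.56 to 16.4 CPM after CCl4 and 21.9, 22.2, 24.9 and 30.2 CPM after GAL, a log2 difference of -0.94 (SE 0.17, adjusted p = 0.000984). Kdr differed by -1.03 (SE 0.15, adjusted p = 0.00019). Neither gene overlapped between these compounds. Lyve1 differed by -1.43 (SE 0.42, adjusted p = 0.017), but by -0.95 (adjusted p = 0.0974) without GAL mouse 7.

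ANIT and MDA differed in 0 of the 10 genes, beside 0% of all genes in edgeR. At an unadjusted p under 0.05, 1 of the 10 passed, Stab1, beside 9.38% of all genes, and DESeq2 called 0. APAP and TAA differed in 0 of the 10 in edgeR, beside 2.62% of all genes, and DESeq2 called 3, Kdr, Clec4g and Oit3. In edgeR the log2 differences, APAP minus TAA, were 1.77 (SE 0.52, adjusted p = 0.0915) for Kdr, 1.22 (SE 0.37, adjusted p = 0.102) for Clec4g and 1.09 (SE 0.28, adjusted p = 0.0592) for Oit3. Without TAA mouse 1 Clec4g passed (1.61, adjusted p = 0.0377). An unadjusted p under 0.05 was reached by 7 of the 10, beside 19.2% of all genes.

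Ordered by median level, ConA was the lowest group for Stab1, Clec4g, Fcgr2b, Oit3, Kdr, Gpr182 and Wnt2. ConA did not overlap the next group, TAA, for Fcgr2b, Oit3, Kdr, Gpr182 and Wnt2, and TAA did not overlap CCl4, the next in order, for Kdr. Of the other neighbours in these orders, intraperitoneal saline and GAL did not overlap for Stab1, nor intraperitoneal saline and ANIT for Rspo3. All remaining neighbours overlapped.

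On a fixed list of 18 other sinusoidal endothelial genes, more fell than rose after TAA, ConA and CCl4, and few were called after ANIT, APAP and GAL. After TAA 11 of 17 tested fell and 1 rose, with a median log2 fold change of -0.76 beside 0.03 over all genes, 24% of which were called lower. After ConA 12 of 17 fell and 1 rose against all vehicle mice (median -1.31, 33.7% of all genes lower), and 8 fell and 1 rose against intravenous saline (median -1.28, 17.3% lower). After CCl4 against intraperitoneal saline 11 fell and 1 rose (median -0.65, all genes 0.10, 15.6% lower). After MDA 6 of 17 fell and 1 rose (median -0.19, 16.4% of all genes lower). After ANIT 4 fell (median -0.15, 14.2% lower), after APAP 4 (median 0.03, 14.6% lower) and after GAL against saline 1 of 18 (median 0.04, 15.7% lower). With libraries scaled by their totals, 2 of the list fell after CCl4 and 1 rose, and after GAL 6 rose and 0 fell. Of all genes called under that scaling, 80.6% were higher after CCl4 against saline and 86.7% after GAL against saline.

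Cd300lg, an endothelial sialomucin, fell by 4.31 on the log2 scale after ConA against all vehicle mice (SE 0.20, adjusted p = 8.17e-16), by 2.24 after TAA (SE 0.49, adjusted p = 0.000839) and by 1.60 after APAP (SE 0.19, adjusted p = 4.62e-06). Ehd3, an endocytic recycling protein, fell by 3.20 (SE 0.13, adjusted p = 1.09e-16) in the same ConA comparison and by 2.01 after TAA (SE 0.17, adjusted p = 1.09e-08). Dnase1l3, a secreted nuclease, fell with log2 fold changes of -1.37 after ANIT (SE 0.14), -1.49 after MDA (SE 0.15) and -1.63 after TAA (SE 0.18). The gene that rose after CCl4 was Bmp6, an iron-sensing signal to hepatocytes, by 2.09 (SE 0.24, adjusted p = 0.000172).

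General endothelial genes moved in both directions. On a list of 12, 6 rose and 3 fell after TAA (median log2 fold change 0.24), 6 rose and 4 fell after ConA against all vehicle mice (0.25), and 6 rose and 1 fell after APAP (0.45). Of all genes, 26.4% were higher and 24% lower after TAA, 34.3% and 33.7% in that ConA comparison and 17.3% and 14.6% after APAP, so the shares of the list that fell after TAA and ConA were near those of all genes. Cdh5, the junction protein VE-cadherin, was 53.1, 76.8 and 128 CPM (lowest, median, highest) after ConA against 17.6, 25.2 and 37.8 CPM in gavage controls. It rose by 1.75 against all vehicle mice (SE 0.15, adjusted p = 1.36e-10) and by 1.34 after TAA (SE 0.16, adjusted p = 1.18e-06). Ptprb, a vascular phosphatase, and the angiopoietin receptor Tek fell after ConA, with log2 fold changes of -2.94 (SE 0.19) and -2.78 (SE 0.24). After CCl4, 9 of 12 fell and 0 rose against all vehicle mice (median -0.50), and 12 of 12 were lower than after GAL (median -0.76), beside 27.2% and 20.3% of all genes lower. With libraries scaled by their totals, 0 of the 12 fell after CCl4 against all vehicle mice (median 0.06), 12 of 12 were still lower than after GAL, and ConA against all vehicle mice gave 5 higher and 5 lower (median -0.37).

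Endothelial activation genes rose after most compounds. After TAA 8 of 8 rose, and after ConA against all vehicle mice 8 of 8, with median log2 fold changes of 2.66 and 4.49. E-selectin (Sele) rose by 7.00 after ConA (SE 0.39, adjusted p = 4.28e-14) and 5.01 after TAA (SE 0.58, adjusted p = 7.47e-07), and Icam1, which binds leukocytes, by 5.05 after ConA (SE 0.21, adjusted p = 1.78e-16). APAP raised 6 of 6 tested, MDA 5 of 6 and ANIT 4 of 6. Of all genes 26.4% rose after TAA, 34.3% in that ConA comparison, 17.3% after APAP, 17.4% after MDA and 14% after ANIT. After GAL, where few of the 10 genes fell, 6 of 8 rose against all vehicle mice (median 1.12, 25.1% of all genes), and 3 of 8 against saline (12.8% of all genes). After CCl4 3 of 8 rose against saline (median 0.24, 18% of all genes). Under scaling by library totals 7 of 8 rose after ConA, 8 of 8 after TAA and 1 of 6 after ANIT.

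Central vein and capillarisation genes formed a list of 10. After TAA 5 of 9 tested rose and 1 fell, beside 26.4% of all genes higher and 24% lower. After ConA against all vehicle mice 4 rose and 3 fell (4 and 4 with libraries scaled by their totals). The ConA counts are near the 34.3% higher and 33.7% lower of all genes. Angpt2, which antagonises Tek, rose by 4.42 after TAA (SE 0.39, adjusted p = 2.29e-08) and 3.81 after ConA (SE 0.34, adjusted p = 3.35e-10). Thrombomodulin (Thbd) rose by 4.19 (SE 0.17) and 4.09 (SE 0.15) in these. The central vein ligand Wnt9b was at most 0.0798 CPM after ConA and fell by 4.03 against all vehicle mice (SE 0.59, adjusted p = 1.25e-06).

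**Figure D4:**
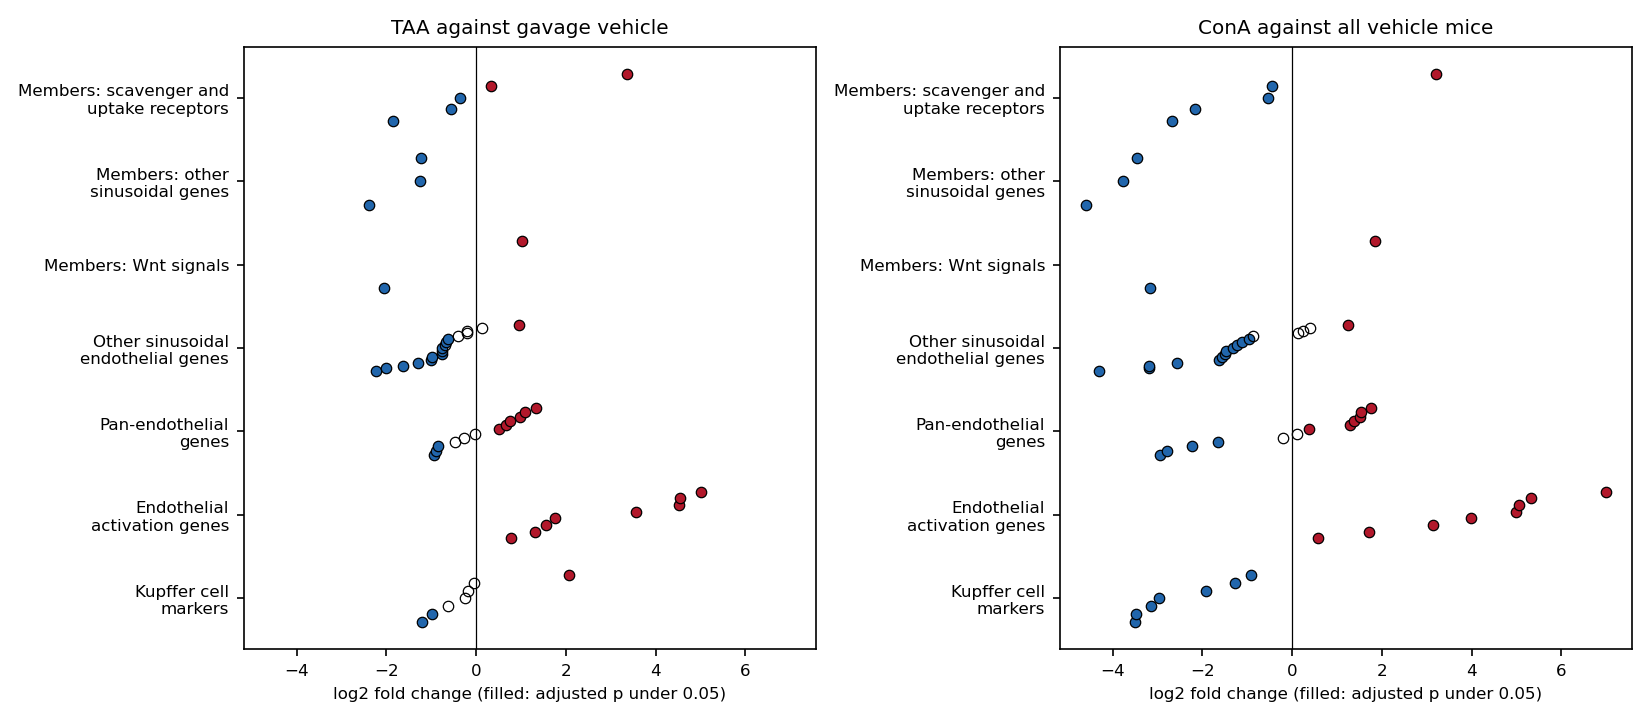
Log2 fold change (x axis) of each gene on the fixed lists (rows) after TAA against gavage vehicle (left) and after ConA against all vehicle mice (right); filled points passed the test and open points did not. The 8 activation genes lie to the right of 0, pan-endothelial genes lie on both sides, and the 7 Kupffer cell markers lie to the left after ConA.

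Kupffer cell markers fell after ConA too, 7 of 7 against all vehicle mice, with a median log2 fold change of -2.97, where 33.7% of all genes were lower. Their summed level was 34.1 to 68.1 CPM after ConA against 185 to 502 CPM in gavage controls. After TAA 2 of 7 fell and 1 rose, and the summed level of 253 to 337 CPM lay inside the control range. Hepatocyte markers fell after CCl4, 5 of 5 against all vehicle mice (median -1.53), and after GAL, 5 of 5 (median -1.35), beside 27.2% and 27.5% of all genes. Stellate cell markers, which matter because stellate cells can also make R-spondins, fell in 3 and rose in 2 of 7 after ConA, and fell in 1 and rose in 3 after TAA. The shares called are near the 68% and 50.5% of all genes. B cell markers rose in 3 of 3 tested after TAA, beside 26.4% of all genes, and fell in 2 of 3 after ANIT and 2 of 2 after MDA, beside 14.2% and 16.4%. Monocyte and neutrophil markers rose in 4 of 5 tested after TAA (median 5.03) and in 4 of 5 after ConA against intravenous saline (median 5.24), beside 26.4% and 16.8% of all genes. With every vehicle mouse as control, 2 of 3 tested rose after ConA (median 4.42, 34.3% of all genes). Their summed level was 118 to 722 CPM after TAA and 119 to 277 after ConA, against 1.21 to 59.9 CPM in gavage controls and 10.5 to 11.5 after intravenous saline. Under scaling by library totals 7 of 7 Kupffer cell markers fell after ConA, 5 and 3 of 5 hepatocyte markers fell after CCl4 and GAL, and 5 stellate cell markers fell and 0 rose after ConA. The part of these shifts in the results for the 10 genes was not tested.

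Wnt target genes of hepatocytes were called lower and not higher in each comparison with the vehicle of the route, except that after GAL scaling by library totals left 1 lower and 1 higher. Of 12 targets, 6 fell after ANIT, 10 after APAP, 10 after MDA, 10 after TAA, 8 after CCl4, 4 after GAL and 7 after ConA, each against the vehicle of its route, and 0 rose. Median log2 fold changes were -1.11, -2.22, -1.19, -1.002, -1.29, -1.45 and -1.78 in that order, beside -0.01, 0.07, 0.03, 0.03, 0.10, 0.08 and 0.03 over all genes. The shares of all genes called lower were 14.2%, 14.6%, 16.4%, 24%, 15.6%, 15.7% and 17.3%. With libraries scaled by their totals, 9 fell after ANIT, 5 after CCl4 and 7 after ConA, and the GAL median was -0.64.

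Lgr5, both a target and an R-spondin receptor, fell in all of these route comparisons except GAL. It lay at 1.22, 2.50 and 3.89 CPM (lowest, median, highest) in gavage controls and at 0.0407, 0.166 and 0.327 CPM after APAP, a log2 fold change of -3.86 (SE 0.33, adjusted p = 3.33e-07). It fell by 3.76 after ConA (SE 0.77, adjusted p = 0.00422) and by 3.25 after TAA (SE 0.41, adjusted p = 2.06e-06). Axin2, a feedback inhibitor of the pathway, fell by 2.38 after ConA (SE 0.50, adjusted p = 0.00498) and by 1.62 after ANIT (SE 0.29, adjusted p = 0.000557).

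After CCl4, Glul fell by 4.37 (SE 0.15, adjusted p = 9.51e-07) and Cyp2e1 fell by 3.46 (SE 0.20, adjusted p = 6.11e-06), where Wnt2 was at -0.66 and not called (adjusted p = 0.24). Against all vehicle mice Wnt2 was also at -0.66 and was called (adjusted p = 0.00818), though not with libraries scaled by their totals (adjusted p = 0.613). After ConA, where Wnt2 kept 15.1% of its saline level, Cyp2e1 was 1002, 3348 and 4329 CPM (lowest, median, highest) beside 2380 and 2875 CPM in the saline pair. Glul was 232, 642 and 955 CPM after ConA beside 437 and 531 CPM. Both genes thus overlapped saline after ConA. Glul was called higher after ConA against all vehicle mice (log2 fold change 0.52, SE 0.16, adjusted p = 0.00611), but with libraries scaled by their totals it was -0.16 and not called (adjusted p = 0.426). These genes were picked for ConA after their values were seen, and 7 of the 12 targets fell against intravenous saline while 0 rose.

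Wnt receptors and membrane regulators, a list of 14, moved in both directions. Rnf43, the ubiquitin ligase that removes frizzled receptors, fell after ANIT, APAP, MDA, TAA, CCl4 and ConA, with log2 fold changes of -1.25, -0.89, -0.84, -0.71, -0.95 and -1.59. Fzd5, a frizzled receptor, rose after TAA (1.50, SE 0.21, adjusted p = 6.66e-06) and ConA (2.05, SE 0.39, adjusted p = 0.00277). After CCl4 7 of 14 fell and 0 rose against intraperitoneal saline, beside 15.6% of all genes lower, and after GAL 0 fell and 0 rose in edgeR. When library totals set the scale, 2 of 14 fell after CCl4, where Rnf43 was no longer called, and 3 rose after GAL. Under that scaling 86.7% of all called genes were higher after GAL against saline.

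**Figure D5:**
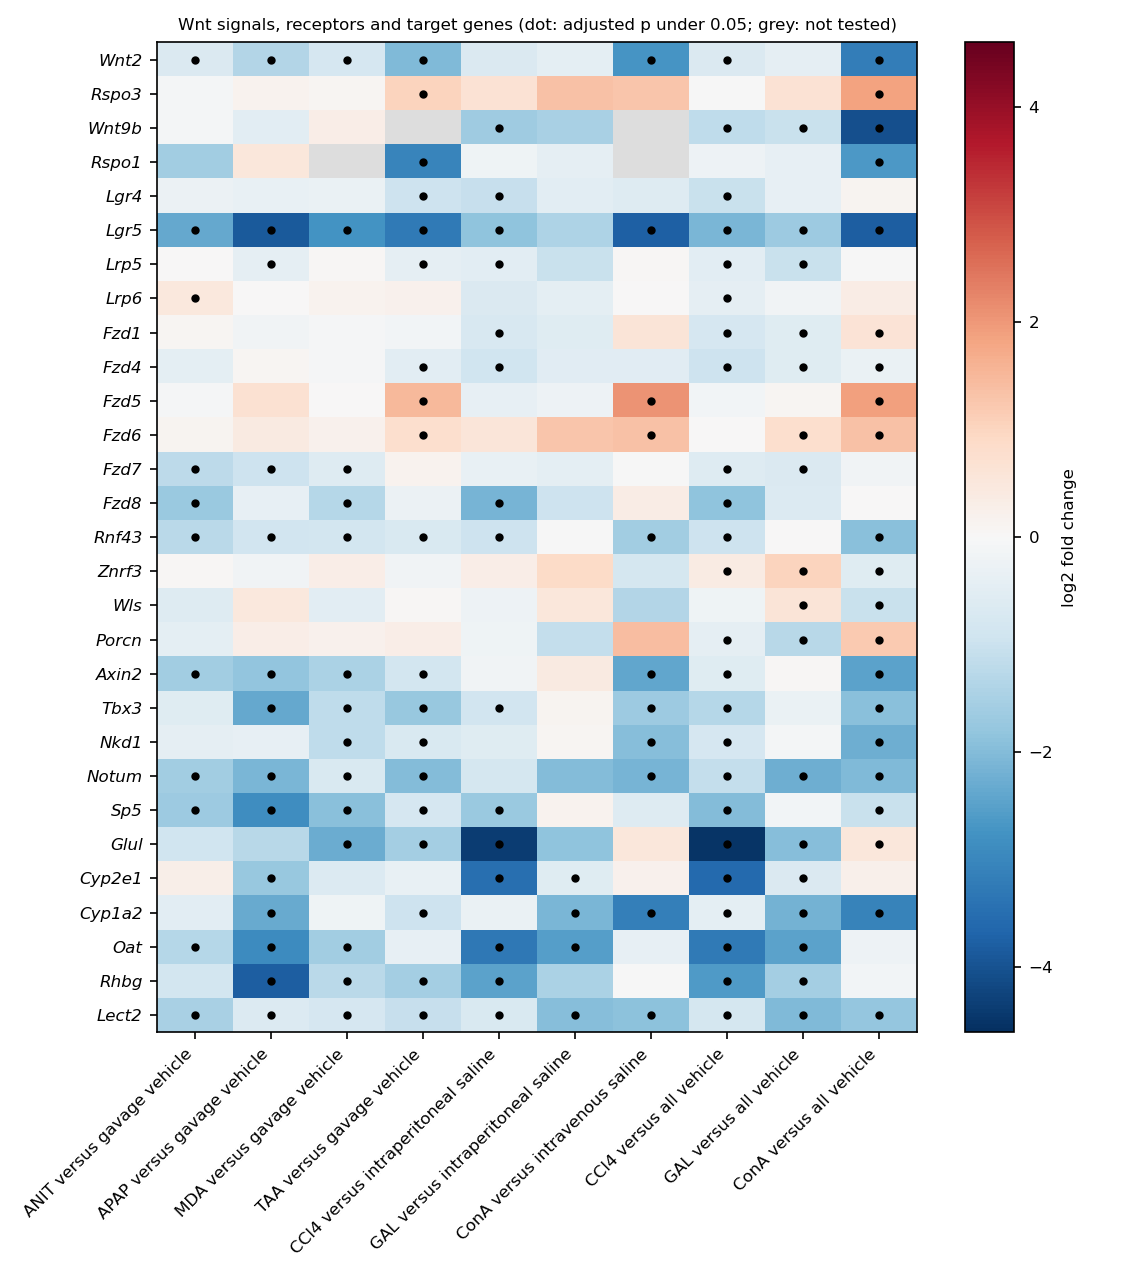
Log2 fold changes of Wnt2, Rspo3, Wnt9b, Rspo1 and the receptors, regulators and targets on the fixed lists (rows) in 10 comparisons with vehicle (columns), with a dot where the adjusted p is under 0.05 and grey where the gene was not tested. Lgr5 is blue in every column, Glul is blue in the CCl4 columns, and Rspo3 is red for TAA and ConA where Wnt2 is blue.

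Across the 57 mice, Pearson's r between the 10 genes had a median of 0.42 over 45 pairs, and of 0.23 after group means were removed. The highest values were among genes that fell after ConA. Pearson's r of log2(CPM + 1) was 0.95 between Oit3 and Gpr182, 0.94 between Fcgr2b and Oit3, 0.93 between Oit3 and Kdr and 0.92 between Clec4g and Kdr. After group means were removed, these pairs gave 0.67, 0.68, 0.74 and 0.68. Not all pairs of those genes were alike. Within groups Clec4g against Gpr182 gave 0.26 and Fcgr2b against Gpr182 0.33. Wnt2 against Clec4g, Fcgr2b, Oit3, Kdr and Gpr182 gave 0.69 to 0.84 over all mice and 0.21 to 0.26 within groups. Stab1 against those 5 genes gave 0.27 to 0.49 over all mice and -0.08 to 0.19 within groups. Stab2 gave 0.36 to 0.47 over all mice and 0.35 to 0.56 within groups. Lyve1 against Kdr gave -0.72 over all mice and -0.39 within groups, and Rspo3 against Wnt2 -0.60 and 0.02. The points share library, scaling and treatment, so these values are descriptions without a test.

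Among 12371 genes, the 3 with the highest r to Kdr over the 57 mice were Oit3 (0.93), Taco1 (0.93) and Ushbp1 (0.93). Those nearest to Fcgr2b were Ptprb (0.94), Oit3 (0.94) and Tek (0.93), and to Oit3 Gpr182 (0.95), Ptprb (0.94) and Fcgr2b (0.94). Clec4g was nearest to Kdr (0.92), Ptprb (0.90) and Tmem204 (0.90), Gpr182 to Oit3 (0.95), Sox18 (0.94) and Pla2g15 (0.93), and Wnt2 to Ehd3 (0.87), Tpbgl (0.86) and Cd300lg (0.84). Another of the 10 genes was among the 3 nearest for 5 of them.

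For the others, Wnt2 among them, no member of the 10 was among the 3 nearest, though Wnt2 had an r of 0.84 with Kdr. Lyve1 was nearest to Prkch (0.91), 1200007C13Rik (0.90) and Inhbb (0.90), and Rspo3 to Hivep2 (0.89), Rlf (0.89) and Jak2 (0.88). Stab1 was nearest to AB124611 (0.78), Tnfaip8l2 (0.75) and Tmem86a (0.75), and Stab2 to Cyp4b1 (0.79), Cd81 (0.72) and Hddc3 (0.71). The nearest patterns of the stabilins were the least like them among the 10 genes.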

How the data were processed

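Whole-liver RNA from 57 mice was sequenced as stranded mRNA libraries, per the labels' protocols. The values deposited by the authors are estimated counts of each gene; the submitters' processing notes name Salmon 1.6.0, R and GRCm39, and the annotation is not given in the sources used here. The deposited estimated counts look corrected for transcript length: in 1697 sparse genes that have 1 transcript, longer transcripts had lower minimum non-zero values (Spearman rho -0.937, across genes). A fold change is little affected, but levels cannot be compared between genes. Estimated counts were rounded for tests. Symbols were matched from a gene table for 51482 identifiers, and 2825 had none. No column belonged to another sample.

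Each comparison was fitted alone with edgeR 4.0.16 in R 4.3.3 (TMM, filterByExpr, quasi-likelihood test, Benjamini-Hochberg adjustment over all genes tested). Alternatives used DESeq2 1.42.0, limma 3.58.1 on log2(CPM + 1), other scalings, filters, controls and models, and leaving out single mice of the smaller groups. No gavage control was left out of a comparison with a toxicant, nor any vehicle mouse where all vehicle mice were the controls. The same holds for APAP mice against TAA, MDA mice against ANIT and CCl4 mice against GAL. The edgeR step was tested on simulated data. The members and lists were chosen with earlier results of these data known, so list counts are not independent support. Beyond the 10 genes, those named were at most 5 per list and comparison, with the largest change among those called, and the 3 nearest patterns per gene. Same-numbered mice were not paired by the labels, and in no comparison with at least 2 shared numbers did every pair's deviations correlate above 0.1, so the fits behind the report have no replicate block, which was tried as an alternative.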

Additional observations from a re-analysis of the deposited data

Results flagged for a closer look

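Of 70 sets of 4 to 7 mice (the 10 genes in each toxicant group), 4 held a mouse far from the rest by Dixon's criterion, where chance alone gives about 1 in 20. Lyve1 in ConA mouse 2 was 68.4 CPM, and the nearest mouse of that group had 47.5 CPM. Clec4g in TAA mouse 1 was 32.0 CPM, and the nearest mouse of that group had 15.0 CPM. Fcgr2b in ANIT mouse 4 was 40.5 CPM, and the nearest mouse of that group had 31.8 CPM. Oit3 in TAA mouse 1 was 10.7 CPM, and the nearest mouse of that group had 7.33 CPM. ConA mouse 2 also had the highest share of mitochondrial transcripts of all 57 mice, at 39.3%; its part was not tested. TAA mouse 1 was thus the highest of its group for both Clec4g and Oit3.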

How the results depend on the processing

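The 85 fits that leave out a mouse and the other alternatives kept the count of the 10 genes within 1.5 times in 202 of 231 cases. Of 160 pairs of gene and comparison, 91 were called in some fit. With Wnt2 after CCl4 against saline these are 92, whose values kept direction and side of the threshold 1246 times, lost the call 96 times, gained it 53 times and reversed 25 times. The other 68 pairs were called in no fit, and 61 of their 855 alternative values changed sign. The cause was not tested for any of these. Same-numbered mice share only a number, and no block could be fitted for CCl4 against intraperitoneal saline, ConA against intravenous saline or CCl4 against GAL, which share fewer than 2 numbers. With 2 saline mice per route, leaving out either assumes that the lone mouse varies like the others.

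In this paragraph and those after it, a compound followed by saline or all is set against the saline of its route or all vehicle mice. Scaling by library totals moved the median of all genes to 0.53 for CCl4 (saline), 0.84 for GAL (saline), -0.56 for ConA (saline), 0.52 for CCl4 (all), 0.84 for GAL (all), -0.61 for ConA (all). The share of calls that were higher then went from 49.5% to 23.7% for ANIT, from 54.3% to 72.5% for APAP, from 53.6% to 80.6% for CCl4 (saline), from 44.9% to 86.7% for GAL (saline), from 49.3% to 22.7% for ConA (saline), from 49.1% to 80.5% for CCl4 (all), from 47.7% to 82.6% for GAL (all), from 50.4% to 25.1% for ConA (all), from 52.2% to 32.7% for CCl4 against GAL. The count of the 10 genes moved beyond 1.5 times as follows. With mice numbered 1 to 4 alone, it was 2 for APAP, 3 for MDA, 4 for TAA, 0 for GAL (all). With mice numbered above 4 alone, it was 2 for GAL (all), 4 for APAP against TAA. With library totals as the scaling, it was 0 for CCl4 (saline), 4 for GAL (saline), 3 for CCl4 (all), 8 for GAL (all), 1 for the ranges of gavage mice. In DESeq2, it was 7 for CCl4 (saline), 1 for GAL (saline), 3 for APAP against TAA. In a single fit over all samples, it was 2 for ANIT, 1 for GAL (saline), 5 for APAP against TAA. With a mean of at least 5 CPM required, it was 3 for ConA (saline), where Oit3, Kdr, Gpr182 and Wnt2 lay under that level and were not tested. With the replicate block, it was 1 for ANIT, 0 for APAP, 6 for TAA, 1 for GAL (saline), 2 for GAL (all). Leaving out single mice gave 1 to 6 for CCl4 (saline), 0 to 1 for GAL (saline), 2 to 4 for GAL (all), 0 to 1 for APAP against TAA of the 10 genes.

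Over the alternatives other than leaving out a mouse, the number of all genes called, with the value behind the report in brackets, was 962 to 4304 for ANIT [3967], 230 to 5378 for APAP [4436], 1292 to 4832 for MDA [4570], 2689 to 8704 for TAA [7247], 3011 to 6839 for ConA (saline) [4827], 4926 to 8885 for CCl4 (all) [7582], 4463 to 10103 for GAL (all) [8014], 5639 to 12283 for ConA (all) [9384], 0 to 78 for ANIT against MDA [0], 0 to 1812 for APAP against TAA [367], 0 to 117 for intraperitoneal saline against gavage [2], 0 to 218 for intravenous saline against gavage [4], 58 to 766 for the ranges of gavage mice [321]. Without single mice it was 2540 to 3976 for ANIT, 3015 to 5430 for CCl4 (saline), 1617 to 6483 for GAL (saline), 0 to 54 for ANIT against MDA, 64 to 325 for APAP against TAA, 0 to 115 for intraperitoneal saline against gavage, 6 to 148 for intravenous saline against gavage, 138 to 198 for the ranges of gavage mice.

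With the replicate block, calls lost were Stab2, Kdr and Wnt2 in ANIT, Stab1, Lyve1, Clec4g and Wnt2 in APAP, Stab1 and Gpr182 in MDA, Stab1, Stab2, Fcgr2b and Rspo3 in TAA, Wnt2 in CCl4 (all), Stab2 and Oit3 in GAL (all), Stab1 in ConA (all) (adjusted p 0.0529 to 0.225), and the call gained was Lyve1 in GAL (saline) (log2 fold change 1.78, adjusted p 0.016). Reversed log2 fold changes follow. Fcgr2b in CCl4 (saline) was 0.0067 with library totals as the scaling. Oit3 in GAL (saline) was 0.172 with library totals as the scaling. Stab1 in CCl4 (all) was 0.0143 with library totals as the scaling. Fcgr2b in CCl4 (all) was 0.0077 with library totals as the scaling. Rspo3 in CCl4 (all) was 0.523 with library totals as the scaling, 0.025 in a single fit over all samples, -0.102 to 0.0713 without single mice (above 0 without CCl4 mouse 5 or 6 or 11). Stab2 in GAL (all) was 0.463 with library totals as the scaling. Clec4g in GAL (all) was 0.762 with library totals as the scaling, 0.209 with a mean of at least 5 CPM required, 0.0081 with the number range as a covariate, 0.117 with mice numbered above 4 alone, 0.0134 with the replicate block, -0.112 to 0.1004 without single mice (above 0 without GAL mouse 2 or 4). Fcgr2b in GAL (all) was -0.0862 with mice numbered 1 to 4 alone. Oit3 in GAL (all) was 0.360 with library totals as the scaling. Kdr in GAL (all) was 0.729 with library totals as the scaling, 0.148 with a mean of at least 5 CPM required, 0.0169 with mice numbered above 4 alone, -0.114 to 0.0018 without single mice (above 0 without GAL mouse 4). Gpr182 in GAL (all) was 0.649 with library totals as the scaling, 0.0552 with a mean of at least 5 CPM required.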
